A study of Mus musculus with 16 samples.

Results

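Lin28a, Lin28b, Trim71, Hmga2, Igf2bp1, Igf2bp2 and Igf2bp3 form a set of genes around the let-7 microRNA family. All probes that carry one of these gene names were taken across the 16 arrays. Of the 7 genes, 6 had at least 1 probe, and together they had 14 of the 41174 probes of the array. Trim71 had 0 probes by name, by the older name Lin41 or by accession, and was not measured here. Lin28a is named Lin28 in the files.

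The let-7 microRNAs are short RNAs that accumulate as cells differentiate and lower the output of many growth-promoting messenger RNAs. Lin28a and Lin28b are RNA-binding proteins that bind let-7 precursors and block their maturation, and Lin28a is a well known mark of pluripotent cells. Hmga2, an architectural chromatin protein of embryonic cells, and the Igf2bp proteins, which bind and stabilize messenger RNAs, are textbook targets of let-7, and let-7 can also act on Lin28a, Lin28b and Trim71 themselves.

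The study asked how far human artificial chromosome vectors that carry reprogramming factors convert fibroblasts of mouse embryos (MEFs) to a pluripotent state, giving induced pluripotent stem (iPS) cells. RNA of each sample was hybridized to 1 array with 1 colour. Clones 1-B, 1-A3, 1-D6 and 1-C3, called iHAC1-iPS (n = 4), carried iHAC1, with 2 copies each of Klf4, c-Myc, Sox2 and Oct4 driven by the CAG promoter. Clones 2-N, 2-B1, 2-E and 2-C6, called iHAC2-iPS (n = 4), carried iHAC2, which adds 2 copies of Oct4 and a p53 knockdown cassette. Lines called iHAC-free iPS (n = 4) had lost iHAC2: F-N7 came from 2-N, F-B1 from 2-B1, F-E4 from 2-E and F-C5 from 2-C6. The MEFs and all of these cells had a C57BL/6 background. The reference embryonic stem (ES) lines were B6ES, from C57BL/6, and TT2, from C57BL/6 x CBA (n = 2). The retroviral iPS line 20D17, from C57BL/6 x DBA, and the MEFs had 1 array each, so their values have no replicate check. ES cells and HAC-bearing clones were kept on MEF feeder layers, and mimics of miR-294 and miR-295 were given while iPS cells were being made with the HAC vectors. In a mixed RNA, fewer cells of a type and less RNA per cell cannot be told apart. Each clone or line is a separate sample, and the number of arrays limits the precision of every difference.

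Levels are log2 processed signals minus the 75th percentile of the array, so 0 is the signal that 75% of the probes of that array did not exceed. Every array had between 54.2% and 65.8% of its spots well above background. The arrays lay on 4 slides in 2 scan sessions. ES cells, MEFs, 20D17 and iHAC1-iPS clones were in the first session, and the iHAC2-iPS clones with their iHAC-free derivatives in the second, so that when the latter are compared with ES or iHAC1-iPS cells, group cannot be told apart from scan session. All 9 ES cell markers that were tested were well above background on every array of ES, 20D17, iHAC-free iPS and iHAC2-iPS cells, whereas iHAC1-iPS clones had 6 to 9. In iHAC1-iPS minus ES cells 7 of the 9 were called lower (background 7.13%) and 1 higher (background 7.17%). The latter was Pou5f1, which encodes Oct4 and is carried by the vectors, at a difference of 2.80 (adjusted p = 0.00244), so its probe can read vector as well as cell transcripts. The summed level of the 9 markers, on the linear scale relative to the 75th percentile of the array, was 106 to 112 in iHAC1-iPS clones, of which Pou5f1 made up 83.3 to 106.7, against 449 to 577 in ES cells. Without Pou5f1 and Sox2, both vector genes, the sum of the other 7 was 2.18 in 1-A3, 2.59 in 1-D6, 10.8 in 1-B and 19.9 in 1-C3. It was 422 to 552 in ES cells, 229 to 755 in iHAC2-iPS clones and 486 to 593 in iHAC-free iPS lines. Dppa5a weighs most in this sum, with a mean log2 level of 8.70 in ES cells, where Zfp42 was next at 4.07. In iHAC2-iPS minus ES cells Dppa5a differed by only -0.19, while the median difference of the 9 markers was -0.94, beside 0.06 over all probes. By limma, 1 of the 9 was called lower there (background 3.28%), Zfp42 at -3.08 (adjusted p = 0.043), and 0 higher (background 3.52%). Dppa3, Esrrb and Zfp42 were not well above background in 1-A3 and 1-D6, the clones that were also lowest in the sum of the 7 markers and in Lin28a. In 1-B, where Lin28a was at 1.23, Dppa3 alone was not well above background. The part of these markers in the Lin28a values was not tested. The 12 fibroblast markers were well above background on every array. Clone 1-A3 stands apart in several results below, and values without it are given there.

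The let-7 sequences are shown because the genes were chosen around this family. The mature let-7 sequences printed here, from RefSeq on GRCm38.p6, share their seed, bases 2 to 8, given in capitals. The seed GAGGUAG is common to 10 of the mature sequences of the family in that source, and let-7j has GAGGUAU instead.
let-7a-5p: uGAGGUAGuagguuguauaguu
let-7c-5p: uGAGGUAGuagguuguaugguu
let-7g-5p: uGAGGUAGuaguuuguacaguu
let-7i-5p: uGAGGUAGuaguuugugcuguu
miR-98-5p: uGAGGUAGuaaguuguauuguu
The mimics given during reprogramming belong to another family, whose seed, AAGUGCU, differs from that of let-7.
miR-294-3p: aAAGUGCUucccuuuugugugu
miR-295-3p: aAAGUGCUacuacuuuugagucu

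The reverse complement of the let-7 seed, CTACCTC, was searched on both strands of the 60-base probe sequences. It was found in the transcript's orientation in 2 of the 14 probes, 1 of Hmga2 and 1 of Igf2bp1, and in 0.306% of all probes. The opposite strand, GAGGTAG, was found in 0.274% of all probes and in none of the 14. A match is only a description of these letters. The stretches that hold it are given in the orientation of the transcript, with the match in capitals, and both genes lie on the minus strand of mm9.
Hmga2, probe A_52_P300730, chr10:119798746-119798768: atcaaaacacactaCTACCTCtt
Igf2bp1, probe A_52_P295950, chr11:95819453-95819471: tggttttaatCTACCTCtt

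Each of the 14 probes exceeded background clearly on some array and entered the test, and 10 did so on all 16. A probe was called when limma gave an adjusted p under 0.05 (Benjamini-Hochberg over 31423 probes) and a difference of at least 2-fold. Against ES cells, 4 of the 14 probes were called in iHAC1-iPS cells, where 14.3% of all tested probes were called. Of these 4, 1 was higher, with a background of 7.17%, and 3 were lower, with a background of 7.13%. In iHAC2-iPS cells 2 were called, with a background of 6.80%, 1 of them higher (3.52%) and 1 lower (3.28%). In iHAC-free iPS cells 0 were called, with a background of 0.363%, made up of 0.188% higher and 0.175% lower. For iHAC2-iPS minus iHAC-free iPS cells 0 were called, with a background of 0.815% (0.213% higher and 0.601% lower). In each of the comparisons with 0 calls, 3 of the 14 probes had an unadjusted p under 0.05. The share of all tested probes with an unadjusted p under 0.05 is not given, so such counts, here and below, have no background beside them. The comparisons against ES cells share the same 2 ES arrays, and both others share the iHAC2-iPS arrays. For iHAC1-iPS minus iHAC2-iPS cells 1 was called, with a background of 20.0%, and it was higher, where 8.98% of all probes were. The called probes were all 3 of Igf2bp1, the probe of Igf2bp2 and 1 of Hmga2. Igf2bp1 was lower and Igf2bp2 was higher in the vector-bearing clones than in ES cells.

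**Figure D1:**
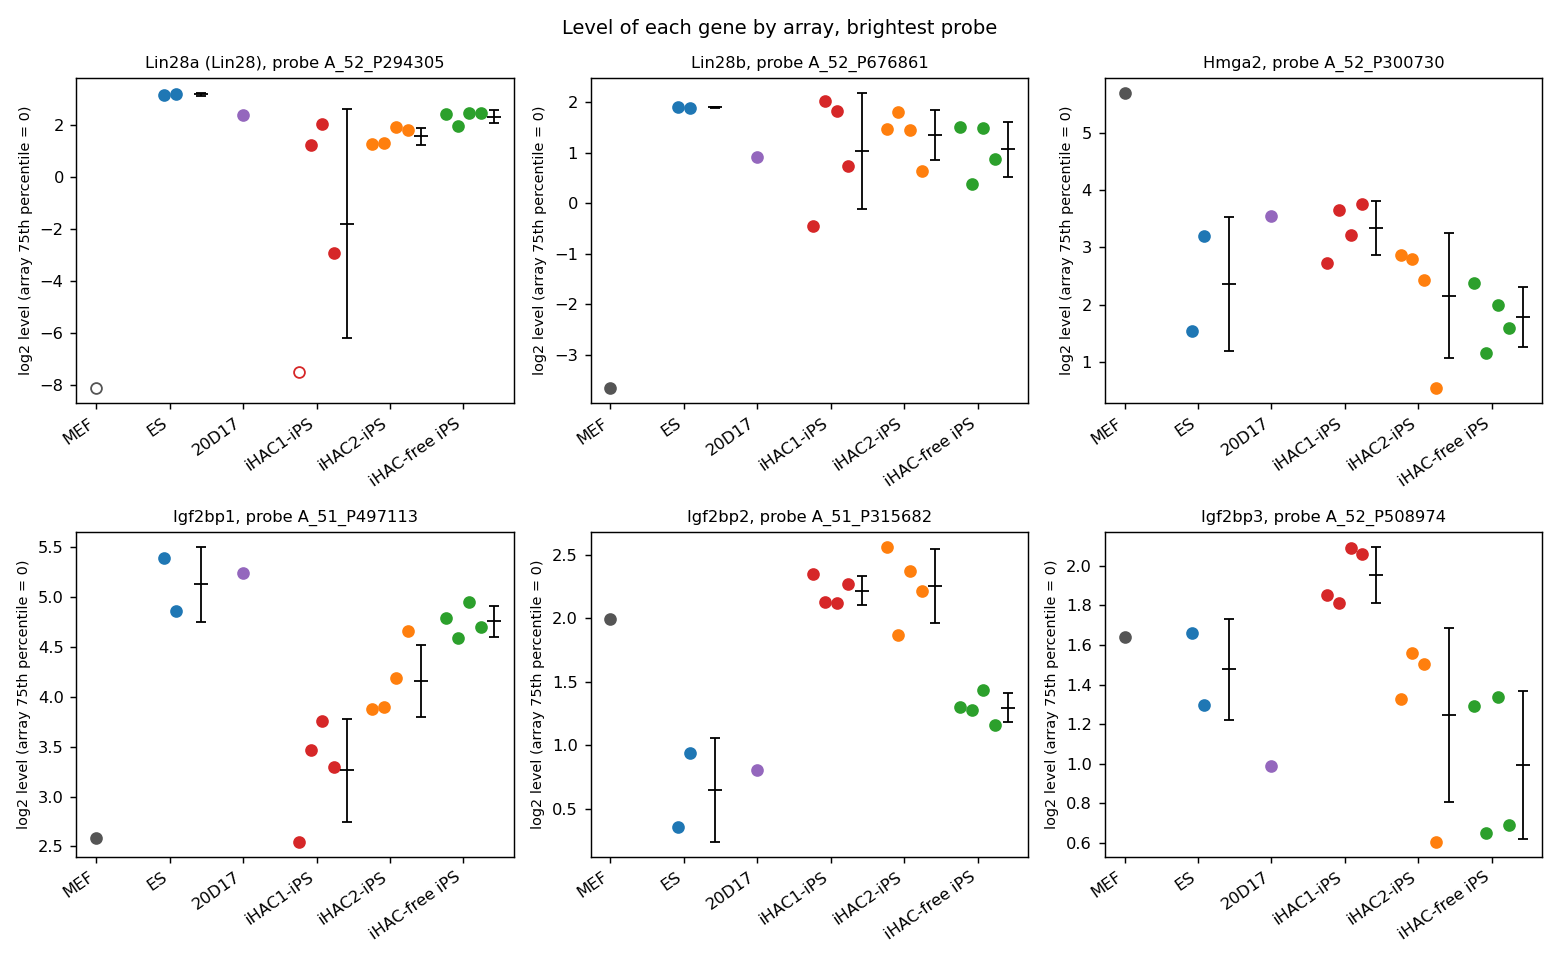
Level of each gene by array (brightest probe, log2 units, array 75th percentile = 0), grouped by cell type on the x axis. Filled points were well above background and open points were not, and bars give the mean ± SD of groups with more than 1 array. Lin28a spans from -7.52 in 1-A3 to 2.05 in 1-C3 among the iHAC1-iPS clones, and Igf2bp2 is at least 1.87 in every iHAC1-iPS and iHAC2-iPS clone and at most 1.43 in every ES, 20D17 and iHAC-free iPS sample.

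Lin28a, the inhibitor of let-7 maturation that marks pluripotent cells, was measured by a single probe (A_52_P294305, chr4:133559527-133559586). Its level was 3.15 in B6ES, 3.21 in TT2 and 2.39 in 20D17. In MEFs it was -8.14, not well above background, so that ES cells were at least 782-fold higher. This bound sets the ES mean against the higher of the MEF signal and the lowest signal well above background on the MEF array.

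The iHAC1-iPS clones were split for Lin28a. The level was 1.23 in 1-B and 2.05 in 1-C3, but -2.94 in 1-D6 and -7.52 in 1-A3, where it was not well above background. All 4 clones were below both ES lines, with a mean of -1.80 ± 4.40 (SD, n = 4). The difference from ES cells was -4.98 (SE 1.90) with an adjusted p of 0.0831, and it was not called. Without 1-A3 it was -3.07, with an adjusted p of 0.0742. It passed both limits without 1-B (-5.99, adjusted p = 0.0430) and without 1-C3 (-6.26, adjusted p = 0.0252), the clones with the highest Lin28a. With normexp background correction it did so too (-3.63, adjusted p = 0.0228). Other fits moved it away from the limit: the slide as a block (adjusted p = 0.222), only these groups fitted (adjusted p = 0.247) and without 1-D6 (-4.60, adjusted p = 0.154). Clone 1-D6, on the same slide as the ES lines, differed from their mean by -6.12 log2 units.

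The levels of Lin28a in iHAC2-iPS clones were close together, at 1.25 in 2-B1, 1.32 in 2-C6, 1.91 in 2-E and 1.79 in 2-N. The iHAC-free iPS lines were at 2.42 in F-B1, 1.97 in F-C5, 2.47 in F-E4 and 2.45 in F-N7. Every iHAC-free iPS line was above every iHAC2-iPS clone and below both ES lines. In each of the 4 pairs the line was above its own clone of origin, by 0.56 to 1.16. The differences from ES cells were -1.61 (adjusted p = 0.589) for iHAC2-iPS and -0.85 (adjusted p = 0.831) for iHAC-free iPS cells, and neither was called. The standard error of Lin28a is estimated over all 16 arrays, so the wide spread of the iHAC1-iPS clones enters these tests. With only the compared groups fitted, the adjusted p was 0.113 for iHAC2-iPS minus ES and 0.0669 for iHAC-free iPS minus ES cells. For iHAC2-iPS minus iHAC-free iPS cells the difference was -0.76 (SE 1.56, adjusted p = 0.832). Without 1-A3 the adjusted p was 0.658, and with only these 2 groups fitted it was 0.170. In iHAC1-iPS minus iHAC2-iPS cells the difference of Lin28a was -3.37 (adjusted p = 0.105). It passed both limits without 1-B (-4.38, adjusted p = 0.0481) and without 1-C3 (-4.65, adjusted p = 0.0286), and it was -1.46 without 1-A3. In order of mean, ES cells came first, then 20D17, iHAC-free iPS, iHAC2-iPS and iHAC1-iPS cells and MEFs, and the neighbours 20D17 and iHAC-free iPS, and iHAC2-iPS and iHAC1-iPS, overlapped.

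Lin28b, the paralog of Lin28a that also blocks let-7 maturation, had 3 probes. The brightest (A_52_P676861, chr10:45096968-45097027) was well above background on all arrays. It read 1.91 in B6ES, 1.90 in TT2, 0.92 in 20D17 and -3.66 in MEFs. The iHAC1-iPS clones again spread widely, with -0.45 in 1-A3, 2.03 in 1-B, 1.84 in 1-C3 and 0.74 in 1-D6. As for Lin28a, 1-A3 and 1-D6 were the lower clones, but all 4 clones were above MEFs, by 3.21 to 5.69. Lin28b ranged from 0.65 in 2-N to 1.82 in 2-C6 among iHAC2-iPS clones and from 0.39 in F-C5 to 1.52 in F-B1 among iHAC-free iPS lines. The iPS groups overlapped each other in Lin28b. All iHAC2-iPS clones, like all iHAC-free lines, were below both ES lines, and no group differed from ES cells past the threshold. The differences from ES cells were -0.86 (SE 0.60, adjusted p = 0.335) for iHAC1-iPS, -0.55 (adjusted p = 0.550) for iHAC2-iPS and -0.83 (adjusted p = 0.451) for iHAC-free iPS cells.

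The other probes of Lin28b were dim. A_52_P532355 was well above background on 11 arrays and A_52_P357516, whose accession is that of a separate cDNA clone, on 6. Neither was well above background in MEFs, so ES cells were at least 5.75-fold higher for the former and at least 2.48-fold higher for the latter. A_52_P357516 was not well above background in any iHAC1-iPS clone. The profile of A_52_P532355 was near that of the brightest probe, with a root mean square difference of 0.47 log2 units over the 16 arrays after centring each probe on its own mean, against 0.83 for A_52_P357516.

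Hmga2 was the gene of the set with its highest level in MEFs. Its brightest probe, A_52_P300730, holds the let-7 match printed above. It read 5.69 in MEFs, 1.54 in B6ES, 3.19 in TT2 and 3.54 in 20D17. The ES lines thus differed by 1.65. The iHAC1-iPS clones read 2.73 in 1-A3, 3.65 in 1-B, 3.22 in 1-C3 and 3.76 in 1-D6. The iHAC2-iPS clones read 2.86 in 2-B1, 2.80 in 2-C6, 2.43 in 2-E and 0.54 in 2-N, the lowest of all arrays. The iHAC-free iPS lines read 2.38 in F-B1, 1.16 in F-C5, 2.00 in F-E4 and 1.59 in F-N7. Every iHAC1-iPS clone was above every iHAC-free iPS line, and all iPS clones were below MEFs.

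The second probe of Hmga2, A_51_P288315 (chr10:119799670-119799729), gave a like profile, with a root mean square difference of 0.18 from A_52_P300730. It was the only probe of the set called between iHAC1-iPS and iHAC2-iPS cells. In iHAC1-iPS clones it read -0.55 in 1-A3, 0.21 in 1-B, -0.09 in 1-C3 and 0.61 in 1-D6. In iHAC2-iPS clones it read -1.01 in 2-B1, -0.66 in 2-C6, -1.10 in 2-E and -3.0 in 2-N. The groups did not overlap, although 1-A3 and 2-C6 were only just apart. The difference was 1.48 (SE 0.52, 2.80-fold, adjusted p = 0.0414). The call depended on several arrays: it was lost without 2-N (0.96, adjusted p = 0.0983), without 1-D6 (1.29, adjusted p = 0.110), without 1-B (1.43, adjusted p = 0.0777), without 1-C3 (1.53, adjusted p = 0.0650), without 2-E (1.60, adjusted p = 0.0552) and with only these 2 groups fitted (adjusted p = 0.0656). For A_52_P300730 the same difference was 1.18 (SE 0.52) with an adjusted p of 0.0929. Against ES cells, neither of these probes was called in any group, with differences of 0.97 and 0.88 for iHAC1-iPS, -0.21 and -0.60 for iHAC2-iPS and -0.58 and -0.77 for iHAC-free iPS cells.

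The third probe of Hmga2, A_52_P373357, followed another course. Its accession is that of a separate cDNA clone, and it was well above background on 13 arrays. It was highest in MEFs, at -1.77. Unlike the other probes, it was higher in 3 of the 4 iHAC-free iPS lines than in their clones of origin, while the other 2 probes were lower in 3 of 4. The probes of Hmga2 therefore disagree on the direction of iHAC2-iPS minus iHAC-free iPS cells, and for each of them this difference was not called. The difference of A_52_P373357 was -0.64 and turned to 0.05 with normexp background correction. In iHAC1-iPS minus ES cells it was 1.18 (SE 0.44, adjusted p = 0.0773), and in iHAC-free iPS minus ES cells 1.07 (adjusted p = 0.202), with B6ES not well above background. In iHAC1-iPS minus iHAC2-iPS cells it was 0.75, and it passed both limits without 2-B1 (1.09, adjusted p = 0.0203).

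Because Hmga2 was highest in MEFs and the cells were grown on feeders, the fibroblast markers are given beside it. The summed level of the 12 markers, relative to the 75th percentile of the array, was 393 in MEFs, 106.7 in B6ES, 275 in TT2 and 448 in 20D17. It ranged from 313 to 635 in iHAC1-iPS clones, from 153 to 402 in iHAC2-iPS clones and from 257 to 390 in iHAC-free iPS lines. Of these 12 markers, 4 were called in iHAC1-iPS minus ES cells, all of them higher, where 7.17% of all tested probes were called higher. The median difference of the 12 was 1.48, beside 0.04 over all probes. The other groups also had medians above those over all probes. In iHAC2-iPS minus ES cells the median was 0.953, beside 0.06, with 10 markers higher and 2 lower. In iHAC-free iPS minus ES cells it was 1.295, beside 0.03, with 11 higher and 1 lower. By limma, 0 were called in iHAC2-iPS minus ES cells (background 6.80%), where 1 had an unadjusted p under 0.05. In iHAC-free iPS minus ES cells 0 were called (background 0.363%), and 5 had an unadjusted p under 0.05. No background share is given for these unadjusted counts. The arrays lowest in the markers, B6ES and 2-N, were also among the lowest in Hmga2, but F-C5, at 390, had less Hmga2 than any array other than 2-N. In 20D17 the summed level of the markers exceeded that of MEFs, while Hmga2 was 2.15 log2 units lower. By the mean log2 level of the same 12 markers the order was the reverse, with 3.45 in 20D17 and 4.11 in MEFs. The part of fibroblasts in the Hmga2 values was not tested.

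**Figure D2:**
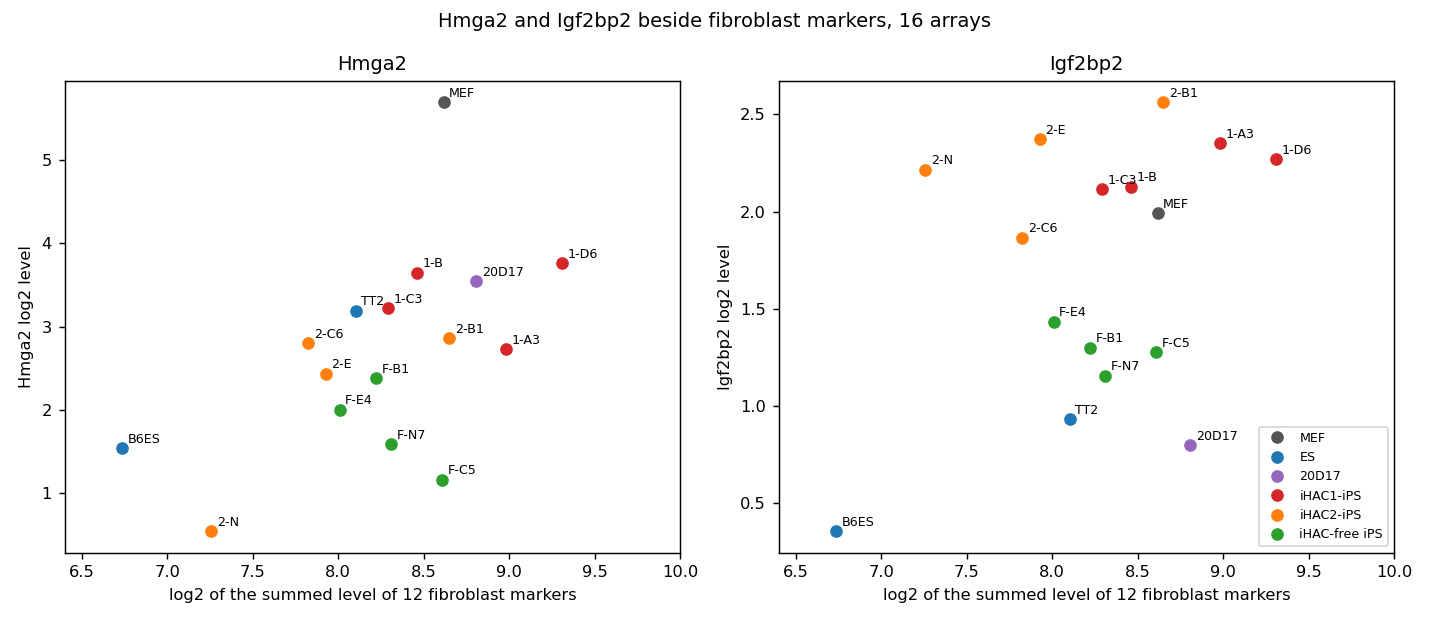
Log2 level of Hmga2 (left, probe A_52_P300730) and Igf2bp2 (right) against log2 of the summed level of 12 fibroblast markers, 1 point per array, coloured by group. In Hmga2 the arrays with fewest fibroblast marker signals, B6ES and 2-N, lie low at 1.54 and 0.54, and in Igf2bp2 the clone 2-N lies high at 2.22 and B6ES low at 0.36.

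Igf2bp1, a messenger RNA-binding protein of embryonic tissues, was the member with the most calls. All of its 3 probes were lower in iHAC1-iPS clones than in ES cells. Its brightest probe (A_51_P497113, chr11:95824526-95824585) read 5.39 in B6ES, 4.86 in TT2, 5.24 in 20D17 and 2.59 in MEFs. The iHAC1-iPS clones read 2.55 in 1-A3, 3.46 in 1-B, 3.75 in 1-C3 and 3.29 in 1-D6. The level in 1-A3 was that of MEFs to within 0.04 log2 units, and all 4 clones were below both ES lines. The iHAC2-iPS clones read 3.88 in 2-B1, 3.90 in 2-C6, 4.18 in 2-E and 4.65 in 2-N, all above the iHAC1-iPS clones and below the ES lines. The iHAC-free iPS lines read 4.78 in F-B1, 4.58 in F-C5, 4.95 in F-E4 and 4.69 in F-N7, and for this probe overlapped both ES cells and 2-N. For both other probes every iHAC-free iPS line was below both ES lines. For A_52_P295950 this was only just so, with 4.088 in F-B1 and 4.091 in B6ES. For A_52_P620742 the nearest were F-E4 at 1.72 and B6ES at 2.23.

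The differences of Igf2bp1 in iHAC1-iPS minus ES cells were -1.86 (SE 0.31, 3.63-fold, adjusted p = 0.0020) for this probe, -1.72 (SE 0.31, adjusted p = 0.00269) for A_52_P295950, which holds the let-7 match, and -2.20 (SE 0.32, adjusted p = 0.00101) for A_52_P620742. All 3 calls held without 1-A3, where the differences were -1.62, -1.50 and -1.93. Within slide 2, where 1-D6 lay beside the ES lines, it was below their mean by a difference of -1.83, -1.89 and -2.20. In iHAC2-iPS minus ES cells the differences were -0.97, -0.98 and -1.62, and only that of A_52_P620742 was called, with an adjusted p of 0.0135. Those of the other probes were just under 2-fold, with adjusted p of 0.0628 and 0.0579. They passed both limits without 2-N for A_51_P497113 (-1.14, adjusted p = 0.0331) and without 2-C6 for A_52_P295950 (-1.06, adjusted p = 0.0407). The call of A_52_P620742 was lost without B6ES (adjusted p = 0.0870), without TT2 (adjusted p = 0.0930) and with only these 2 groups fitted (adjusted p = 0.0903). In iHAC-free iPS minus ES cells the differences were -0.37, -0.46 and -0.90, none of them called, with adjusted p of 0.528, 0.413 and 0.156.

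In iHAC2-iPS minus iHAC-free iPS cells Igf2bp1 was lower in the vector-bearing clones on average, by -0.60, -0.51 and -0.72, and was not called (adjusted p = 0.243, 0.302 and 0.192). For A_51_P497113 the line was above its clone of origin in 4 of 4 pairs, by 0.04 to 0.91. For A_52_P620742 it was above in 4 of 4 pairs and for A_52_P295950 in 3 of 4. Between iHAC1-iPS and iHAC2-iPS cells the differences were -0.89, -0.74 and -0.58, under 2-fold, with adjusted p of 0.0177, 0.0359 and 0.103. That of A_51_P497113 passed both limits without 1-C3 (-1.05, adjusted p = 0.0111).

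Igf2bp2 ran in the opposite direction from Igf2bp1. This member of the family, named for binding the messenger RNA of Igf2, had 1 probe (A_51_P315682, chr16:22059260-22059319). It read 0.36 in B6ES, 0.93 in TT2, 0.80 in 20D17 and 1.99 in MEFs. The iHAC1-iPS clones read 2.35 in 1-A3, 2.13 in 1-B, 2.12 in 1-C3 and 2.27 in 1-D6, all within 0.36 of MEFs. The iHAC2-iPS clones read 2.56 in 2-B1, 1.87 in 2-C6, 2.37 in 2-E and 2.22 in 2-N. The iHAC-free iPS lines read 1.3 in F-B1, 1.28 in F-C5, 1.43 in F-E4 and 1.16 in F-N7, below every vector-bearing clone and above both ES lines.

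Igf2bp2 was higher than in ES cells by 1.57 (SE 0.21, 2.97-fold, adjusted p = 0.000497) in iHAC1-iPS cells and by 1.61 (SE 0.21, 3.05-fold, adjusted p = 0.00259) in iHAC2-iPS cells. The vector-bearing groups did not differ from each other past the threshold, with a difference of -0.04 and a 95% interval from -0.41 to 0.33. The call in iHAC1-iPS cells held without 1-A3 (1.53, adjusted p = 0.00175), and 1-D6 was above the ES lines of its own slide by 1.62. The call in iHAC2-iPS cells was lost when only these 2 groups were fitted (adjusted p = 0.113). In iHAC-free iPS cells the difference from ES cells was 0.65 (SE 0.21, adjusted p = 0.127), which was not called.

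In iHAC2-iPS minus iHAC-free iPS cells Igf2bp2 differed by 0.96 (SE 0.17, 95% interval from 0.59 to 1.33), with an adjusted p of 0.0251. At 1.95-fold this was under the 2-fold limit and therefore not called. It was 1.16 on slide 3 and 0.76 on slide 4, and it was positive in 4 of 4 pairs, by 0.59 to 1.26. Its adjusted p was 0.0513 with the slide as a block, 0.242 with a block for the clone of origin and 0.0731 with only these 2 groups fitted. Without 2-C6 the difference was 1.09 and passed both limits (adjusted p = 0.0143). Clone 2-N, with a fibroblast marker sum of 153, had an Igf2bp2 level of 2.22, and B6ES, with 106.7, had 0.36. The part of fibroblasts in the Igf2bp2 values was not tested.

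**Figure D3:**
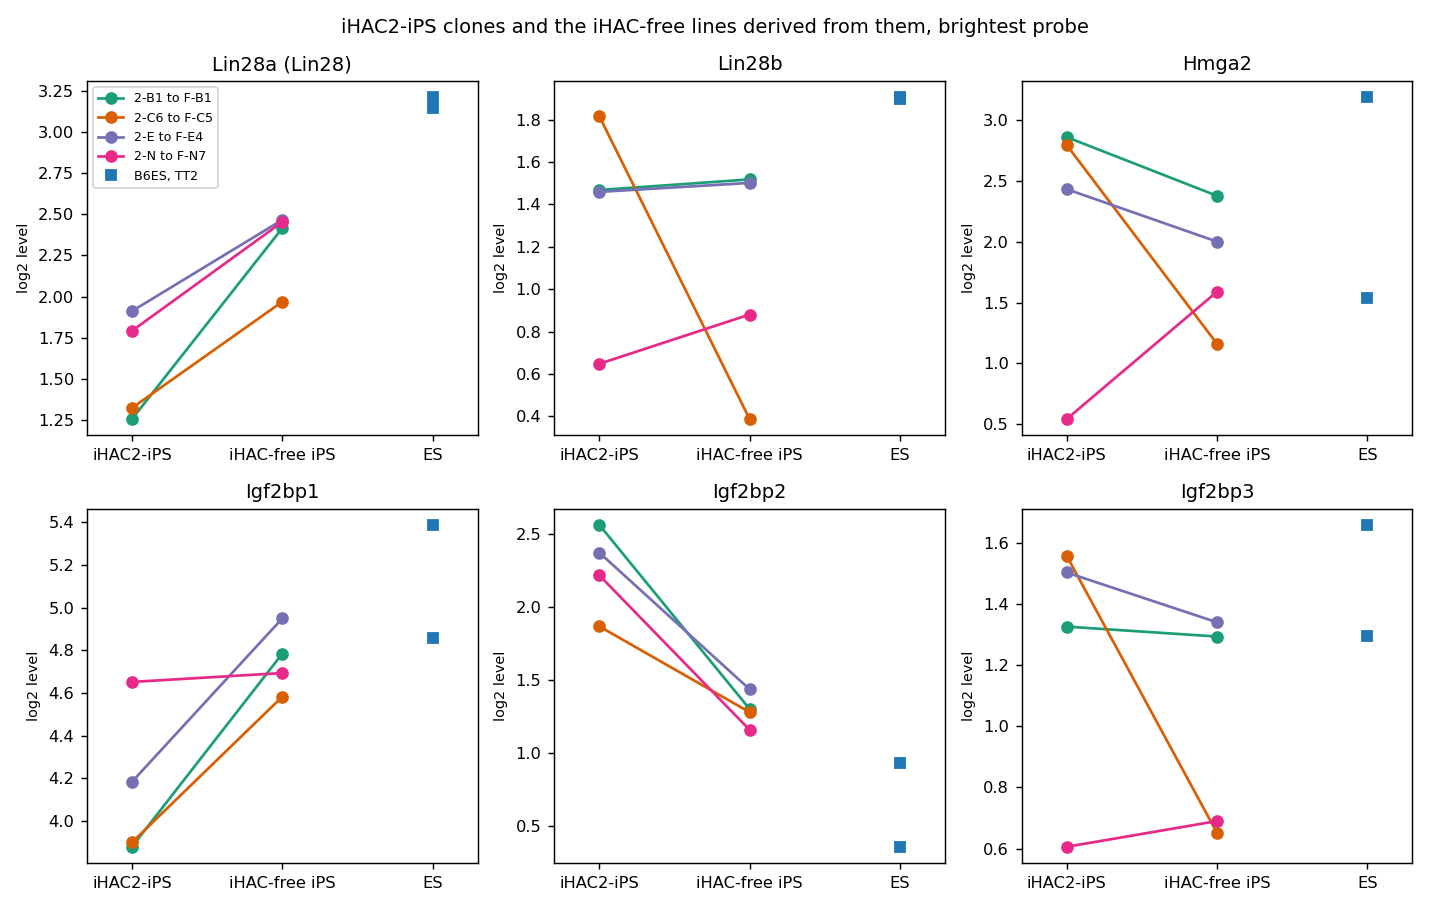
Log2 level of the brightest probe of each gene in iHAC2-iPS clones, in the iHAC-free derivative of each (joined by lines) and in ES lines (squares). Lin28a and Igf2bp1 rise in level in each of the 4 pairs and Igf2bp2 falls in each of the 4, while in Lin28b, Hmga2 and Igf2bp3 the direction differs between pairs.

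Igf2bp3, the remaining member of the family, varied least. Its brightest probe (A_52_P508974, chr6:49035710-49035769) read 1.64 in MEFs, 1.66 in B6ES, 1.3 in TT2 and 0.99 in 20D17. It ranged from 1.81 to 2.09 in iHAC1-iPS clones, from 0.61 to 1.56 in iHAC2-iPS clones and from 0.65 to 1.34 in iHAC-free iPS lines. For this probe the iHAC1-iPS clones were above every other array. For both other probes they overlapped the iHAC2-iPS clones. In A_51_P302336 1-A3 was at 1.53 and 2-C6 at 1.62, and in A_52_P271232 1-B was at -0.64 and 2-C6 at -0.44. Against ES cells none of the 3 probes was called in any group, and the differences lay between -0.48 and 0.67. In iHAC1-iPS minus iHAC2-iPS cells A_52_P508974 differed by 0.71 (SE 0.23, 1.63-fold, adjusted p = 0.0325), under the 2-fold limit, and the other probes differed by 0.30 and 0.73 (adjusted p = 0.341 and 0.0674). Its range over all arrays, 1.49 log2 units, was wider than that of only 30.9% of all tested probes.

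**Figure D4:**
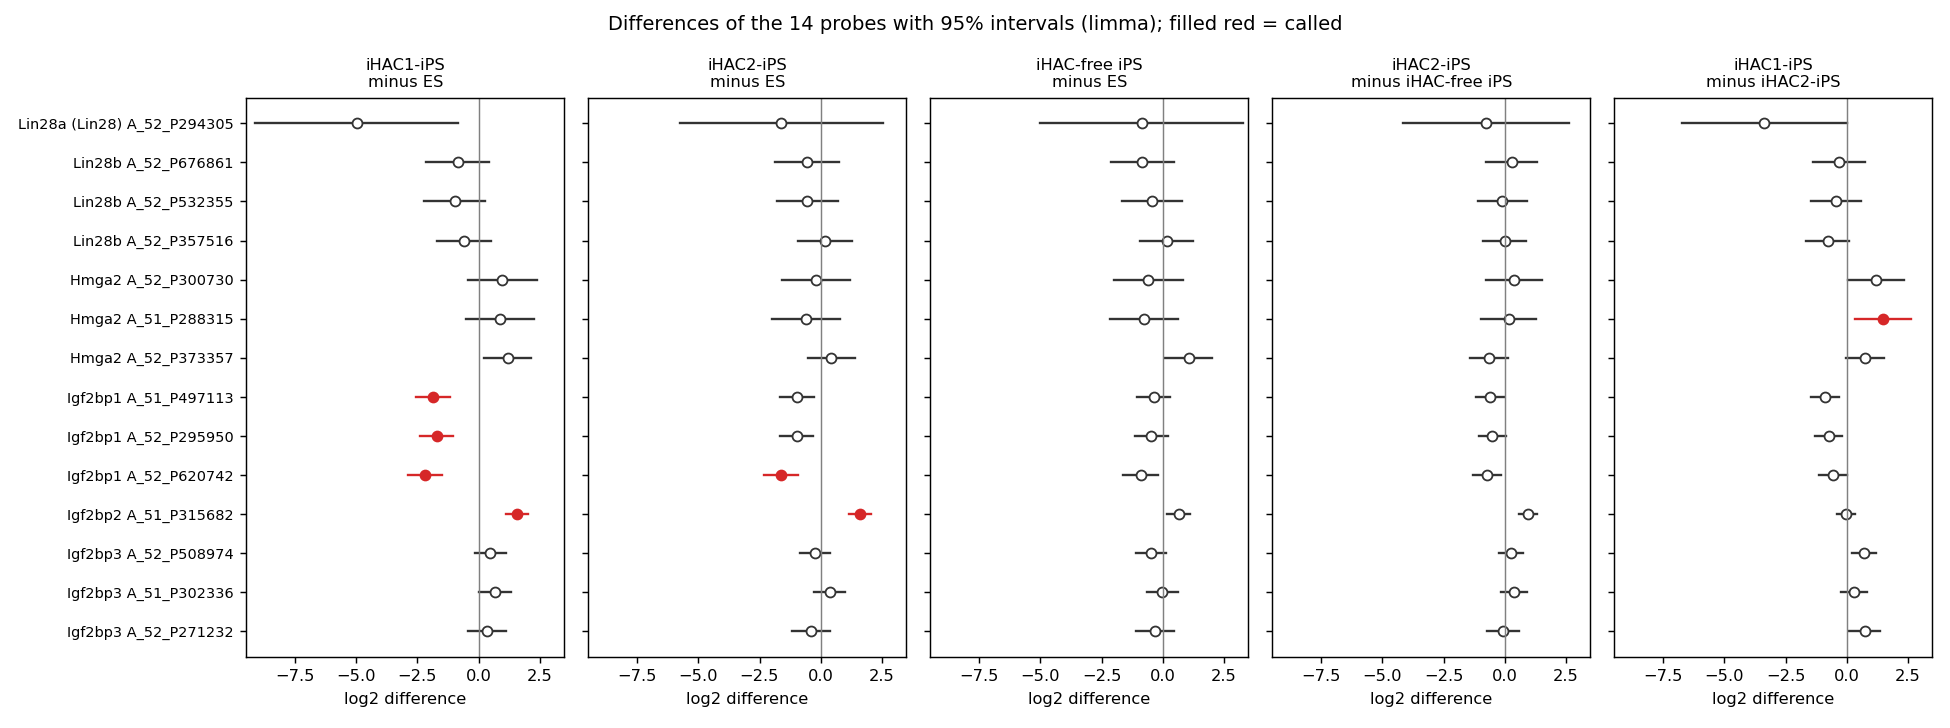
Log2 difference of the 14 probes in each of 5 comparisons, with 95% intervals from limma, filled red where called. The intervals of Lin28a are the widest, from -9.12 to -0.84 in iHAC1-iPS minus ES cells, and against ES cells Igf2bp1 and Igf2bp2 lie on opposite sides of 0.

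The 3 genes with the profile nearest to each member were found by the root mean square difference of centred log2 levels over the 16 arrays, among 17447 genes. For Lin28a they were Eras, an ES cell-expressed Ras, at 0.64, Trap1a at 0.72 and 2410007B07Rik at 0.90, where the median gene was at 3.48. Lin28a was not well above background in MEFs and 1-A3, so its distances rest in part on background signals. For Lin28b they were Gm5622, Zic5 and Atf7ip2, at 0.54 to 0.59, where the median gene was at 1.45. For Hmga2 they were Irs1, an adaptor of the insulin and Igf1 receptors, at 0.41, Samd4 at 0.41 and Hmga2-ps1, a pseudogene of Hmga2, at 0.43, where the median gene was at 1.29. Whether the probes of Hmga2-ps1 and Hmga2 also bind each other's transcript was not tested. For Igf2bp1 the nearest were Gm5165, Dtwd2 and Tasor, at 0.23 to 0.28, where the median gene was at 1.02. For Igf2bp2 they were Sdhaf1, 2310039H08Rik and Tmem64, at 0.25 to 0.26, where the median gene was at 0.83, and for Igf2bp3 they were Hnrnph2, Thoc7 and Zfp266, at 0.17 to 0.20, where the median gene was at 0.70. Among the members themselves, the profiles nearest to each other were Igf2bp2 and Igf2bp3, at 0.64, and the farthest apart were Lin28a and Hmga2, at 4.24. The former distance was not far under that of the median gene, 0.83 from Igf2bp2 and 0.70 from Igf2bp3. The measure depends on how widely each gene varied, and Lin28a varied most, over 11.35 log2 units.

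Among 18 genes that make, carry or degrade let-7, 3 were called in iHAC1-iPS minus ES cells, 2 higher and 1 lower, where 7.17% and 7.13% of all tested probes were. An unadjusted p under 0.05 was found for 9 of the 18 in that comparison and for 10 in iHAC2-iPS minus ES cells. The share of all tested probes at that level is not given, so these counts alone do not set the list apart. In iHAC1-iPS minus ES cells the median difference was 0.04, beside 0.04 over all probes tested. Dis3l2, the nuclease that degrades let-7 precursors tailed under Lin28, was higher by 1.41 (adjusted p = 0.00613) and Ago1, an Argonaute protein, by 1.27 (adjusted p = 0.00212). Tarbp2, a partner of Dicer, was lower by a difference of -1.33 (adjusted p = 0.00469). In iHAC2-iPS minus ES cells 1 was called higher (background 3.52%) and 2 lower (background 3.28%): Dis3l2 was higher, by 1.16 (adjusted p = 0.0289), while Ago4 differed by -1.24 (adjusted p = 0.0477) and Khsrp, which promotes let-7 processing, by -1.07 (adjusted p = 0.0126). In iHAC-free iPS minus ES cells only Khsrp was called (-1.19, adjusted p = 0.0409), where 0.175% of all probes were called lower. In iHAC2-iPS minus iHAC-free iPS cells limma called 0 of 18, and 1 had an unadjusted p under 0.05. In iHAC1-iPS minus iHAC2-iPS cells 3 were called higher (background 8.98%), Ago4 (1.71), Khsrp (1.54) and Ago1 (1.29), and 0 lower. Tut4, an enzyme that tails let-7 precursors, was not called between iHAC1-iPS and ES cells, at 0.42 (adjusted p = 0.224). Tut7, also on the list, was at 0.15 there (adjusted p = 0.469). It differed by 0.63 (adjusted p = 0.0194) in iHAC2-iPS minus ES cells. In iHAC1-iPS minus iHAC2-iPS cells Tut7 differed by -0.47 (adjusted p = 0.00701), and both differences were under the 2-fold limit.

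Of 24 other genes described as let-7 targets, 23 had a tested probe. In iHAC1-iPS minus ES cells 6 were called higher, with a background of 7.17%, and 1 lower, with a background of 7.13%, and the median difference was 0.25, beside 0.04 over all probes tested. Myc was higher by 4.73 (adjusted p = 0.000106), Plagl1 by 2.46 (adjusted p = 0.00422) and Ccnd2, a G1 cyclin, by 2.02 (adjusted p = 0.00562), while Mycn was lower by a difference of -4.79 (adjusted p = 0.00247). Myc is a gene of the vectors, so its probe can read vector as well as cell transcripts. In iHAC2-iPS minus ES cells Myc was the only gene called, at 2.70 (adjusted p = 0.00847), where 3.52% of all tested probes were called higher. It was also the only gene called in iHAC2-iPS minus iHAC-free iPS cells, at 4.15 (adjusted p = 0.0011), where 0.213% were called higher. In iHAC-free iPS minus ES cells limma called 0 of 23 (background 0.363%), with 5 at an unadjusted p under 0.05. In iHAC1-iPS minus iHAC2-iPS cells 7 were called higher (background 8.98%) and 2 lower, 9 in all (background 20.0%), with Plagl1 at 3.35 (adjusted p = 0.000155), Myc at 2.03 (adjusted p = 0.00234) and Cdk6 at 1.89 (adjusted p = 0.0251) the largest increases and Mycn at -3.09 (adjusted p = 0.00506) and Nr6a1 at -2.78 (adjusted p = 0.0172) the decreases. Hmga1, the paralog of Hmga2, was not called in any of the 5 comparisons.

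**Figure D5:**
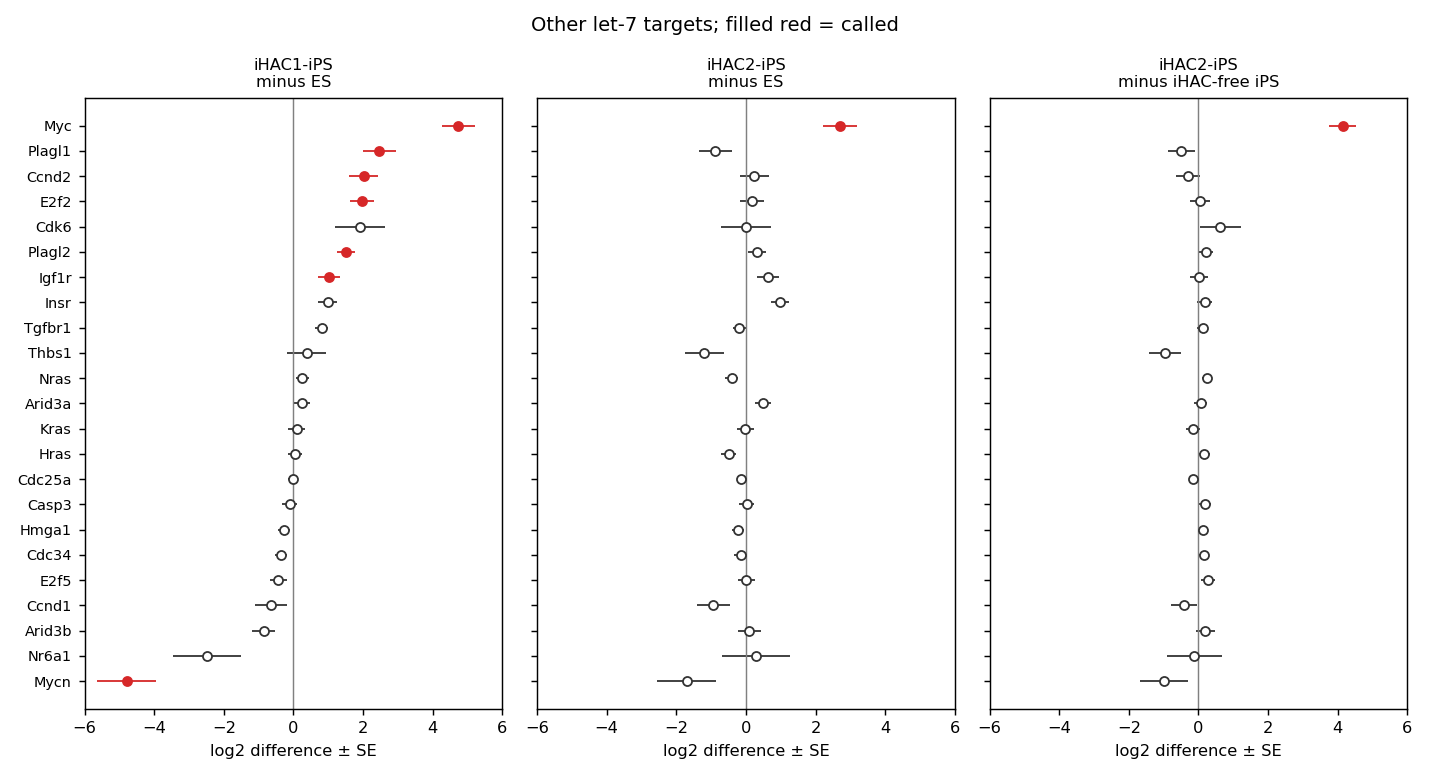
Log2 difference ± SE of 23 other let-7 targets in 3 comparisons, filled red where called. In iHAC1-iPS minus ES cells 6 genes are called above 0, up to Myc at 4.73, and Mycn is called below it at -4.79, while Myc is the only gene called in the other comparisons.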

How the data were processed

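RNA from 16 samples was hybridized to Agilent mouse arrays with Cy3. The deposited scanner files hold intensity values that the authors extracted with Feature Extraction (10.7.1.1 in the first scan session, 10.7.3.1 in the second). Their background-subtracted signal is the mean signal minus a fitted background surface. The levels here use the processed signal, which had a log2 value for nearly all probes, dim ones included. How it is set for dim spots was not checked, so levels not well above background may not be plain background-subtracted readings. A deposited table of log2 values, which the authors made in GeneSpring GX, is centred on each probe's median. Its differences between arrays matched those of the scanner values, and it served as an alternative.

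Groups were taken from the sample labels. Spots of a probe were averaged, control and outlier spots were left out, and log2 signals were set to the 75th percentile of each array. The test covered 31423 of 41174 probes, those that were well above background on 1 array or more, with limma 3.58.1 in R 4.3.3, fitting 6 groups over 16 arrays with Benjamini-Hochberg adjustment. The threshold was an adjusted p under 0.05 and a difference of at least 2-fold. The test was tested on simulated data. MEF and 20D17 entered the fit but no comparison. The iHAC-free iPS lines were paired with their clones of origin as the study lists them (the labels name no clone of origin), and the correlation of their deviations was between -0.219 and 0.08. Alternatives were quantile normalization, normexp with an offset of 50, the deposited table, no filter or a strict filter on dim probes (19941 probes), slide as a block, a replicate block, only the compared groups, and leaving out each sample. Leaving out 1-A3 where it was not compared was added after seeing the data. Coordinates are those of the array design on mm9. Named genes of the lists were the 3 largest calls in each direction, besides members, Tut4, Tut7 and Hmga1. Tut4, Tut7 and Hmga1 were singled out after their values were seen. The members and lists were chosen with earlier results of these data known. The number of arrays limits the precision.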

Additional observations from a re-analysis of the deposited data

Results flagged for a closer look

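Among 42 sets of 4 samples, 3 had a sample far from the others, where chance gives about 1 in 20. Lin28a in F-C5 was 1.97, the lowest iHAC-free iPS line, with the nearest at 2.42 and the highest at 2.47. Igf2bp1 (A_52_P295950) in 2-C6 was 3.44, the highest iHAC2-iPS clone, with the nearest at 3.15 and the lowest at 3.1. Igf2bp3 (A_51_P302336) in 2-N was 0.64, the lowest iHAC2-iPS clone, with the nearest at 1.57 and the highest at 1.62. Clone 2-N was also the lowest of all arrays for both other probes of Igf2bp3 and for Hmga2 (A_52_P300730 and A_51_P288315).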

How the results depend on the processing

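The number of called probes moved from 2 to 0 in iHAC2-iPS minus ES and from 1 to 0 in iHAC1-iPS minus iHAC2-iPS cells when only the compared groups were fitted, and the cause was not tested. Leaving out each sample gave 4 to 5 calls in iHAC1-iPS minus ES, 1 to 3 in iHAC2-iPS minus ES, 0 in iHAC-free iPS minus ES, 0 to 1 in iHAC2-iPS minus iHAC-free iPS and 0 to 2 in iHAC1-iPS minus iHAC2-iPS cells. The replicate block by clone of origin left 0 calls, as did the fit without it, and the slide blocks, filters and deposited table moved no count. The random slide block had a correlation of -0.119.

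Normexp moved the median of all probes from 0.03 to -0.14 in iHAC-free iPS minus ES and from 0.04 to 0.15 in iHAC2-iPS minus iHAC-free iPS cells. With it, directions turned for Lin28b A_52_P357516 (-0.21) and Igf2bp3 A_51_P302336 (0.0325, and 0.0191 with quantile normalization) in the former and for Lin28b A_52_P532355 (0.25), Hmga2 A_52_P373357 (0.0507) and Igf2bp3 A_52_P271232 (0.0321) in the latter. None of these was called.

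Leaving out single samples turned other directions that were not called. In iHAC2-iPS minus ES cells the ranges were -0.14 to 0.50 for Lin28b A_52_P357516, -1.03 to 0.62 for Hmga2 A_52_P300730, -1.48 to 0.27 for A_51_P288315 and -0.021 to 0.87 for A_52_P373357. In iHAC-free iPS minus ES cells they were -0.15 to 0.49 for Lin28b A_52_P357516, -1.41 to 0.24 for Hmga2 A_52_P300730, -1.64 to 0.11 for A_51_P288315 and -0.19 to 0.17 for Igf2bp3 A_51_P302336. In iHAC2-iPS minus iHAC-free iPS cells they were -0.30 to 0.17 for Lin28b A_52_P532355, -0.31 to 0.30 for A_52_P357516, -0.10 to 0.68 for Hmga2 A_51_P288315 and -0.33 to 0.14 for Igf2bp3 A_52_P271232. In iHAC1-iPS minus iHAC2-iPS cells they were -0.64 to 0.19 for Lin28b A_52_P676861, -0.73 to 0.0606 for A_52_P532355 and -0.17 to 0.0646 for Igf2bp2.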
